A study of Mus musculus with 16 samples.

Results

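The mitosis and spindle genes described here are 47 genes of the 54532 in the deposited gene table, taken by exact symbol from a list of genes that act between the entry into mitosis and the separation of the daughter cells. All 47 symbols were found, each with 1 identifier, on 16 chromosomes. RNA was measured in retinal microglia sorted at postnatal day 17 from mouse pups with oxygen-induced retinopathy (OIR, 8 libraries) and from pups without it (nonOIR, 8 libraries). OIR is a model in which a period of high oxygen followed by room air leaves the young retina short of vessels. Pups of both groups were Cx3cr1CreERT2:Rosa26-tdTomato reporter mice that were injected under the skin on postnatal day 1 with tamoxifen (a volume of 5 µl holding 21 mg/ml), so the tdTomato label marks cells that carried active Cre, driven from Cx3cr1, around that day. Cx3cr1 is also active in other macrophages and in monocytes. Cells were gated as tdTomato+, CD11b+ and CD45 low without Ly6C or Ly6G, and each library was made from 750 pg of total RNA. Since separate animals per library are not stated, the p-values reflect only how much these libraries vary, and part of that variation may be technical.

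Mitosis is driven by the kinase Cdk1 bound to B-type cyclins, which sets off the assembly of a spindle of microtubules. Kinetochores tie chromosomes to the spindle, a checkpoint delays the anaphase-promoting complex (APC/C) until all are attached, and the APC/C then has securin and cyclin B destroyed so that separase can split sister chromatids. Many of these genes are transcribed mainly in late S, G2 and M phase, so their transcripts are often used as a sign of dividing cells, and microglia of the young central nervous system can divide in place.

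Library totals lay between 13591651 and 30001463 counts. The 10 microglial marker genes summed to between 36229 and 77018 CPM in every library, where CPM is a gene's count relative to the library total after TMM scaling, as counts-per-million. Ly6c2 and Ly6g, which stand for the gated-out surface markers, had 0 counts in all 16. In each group 5 libraries carried a first lane code and 3 a second, and the S number in the label starts again after the first 4 OIR libraries. Those 4 all carry the first lane code, and all 8 nonOIR libraries are numbered after the restart. What else these codes separate, such as animals or preparation, is not given.

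Mitosis and spindle genes were higher in OIR microglia. Of the 47, 38 rose (80.9%, against 6.39% of all 12496 genes tested) and 0 fell (4.56% of all genes did) (threshold of 0.05 on the adjusted p of edgeR, quasi-likelihood test). The median log2 fold change was 2.82, against -0.03 over all genes tested. Among the 38, the rise ran from 2.48-fold for the checkpoint gene Mad2l1 to 16.0-fold for the kinetochore motor gene Cenpe, and 33 were at least 4-fold higher. Among all genes tested, 163 passed the threshold with a rise of at least 4-fold and 61 with a rise of at least 8-fold. Of those 61, 19 were among these 47. In 17 of the 47 every OIR value lay above every nonOIR value, which was the case for 1.34% of all genes tested. The 9 genes that did not pass were Cks2, Bub3, Ttk, Pttg1, Espl1, Ndc80, Aspm, Ect2 and Mki67. In these bulk libraries, a larger share of dividing cells and more of this RNA per dividing cell cannot be told apart.

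**Figure D1:**
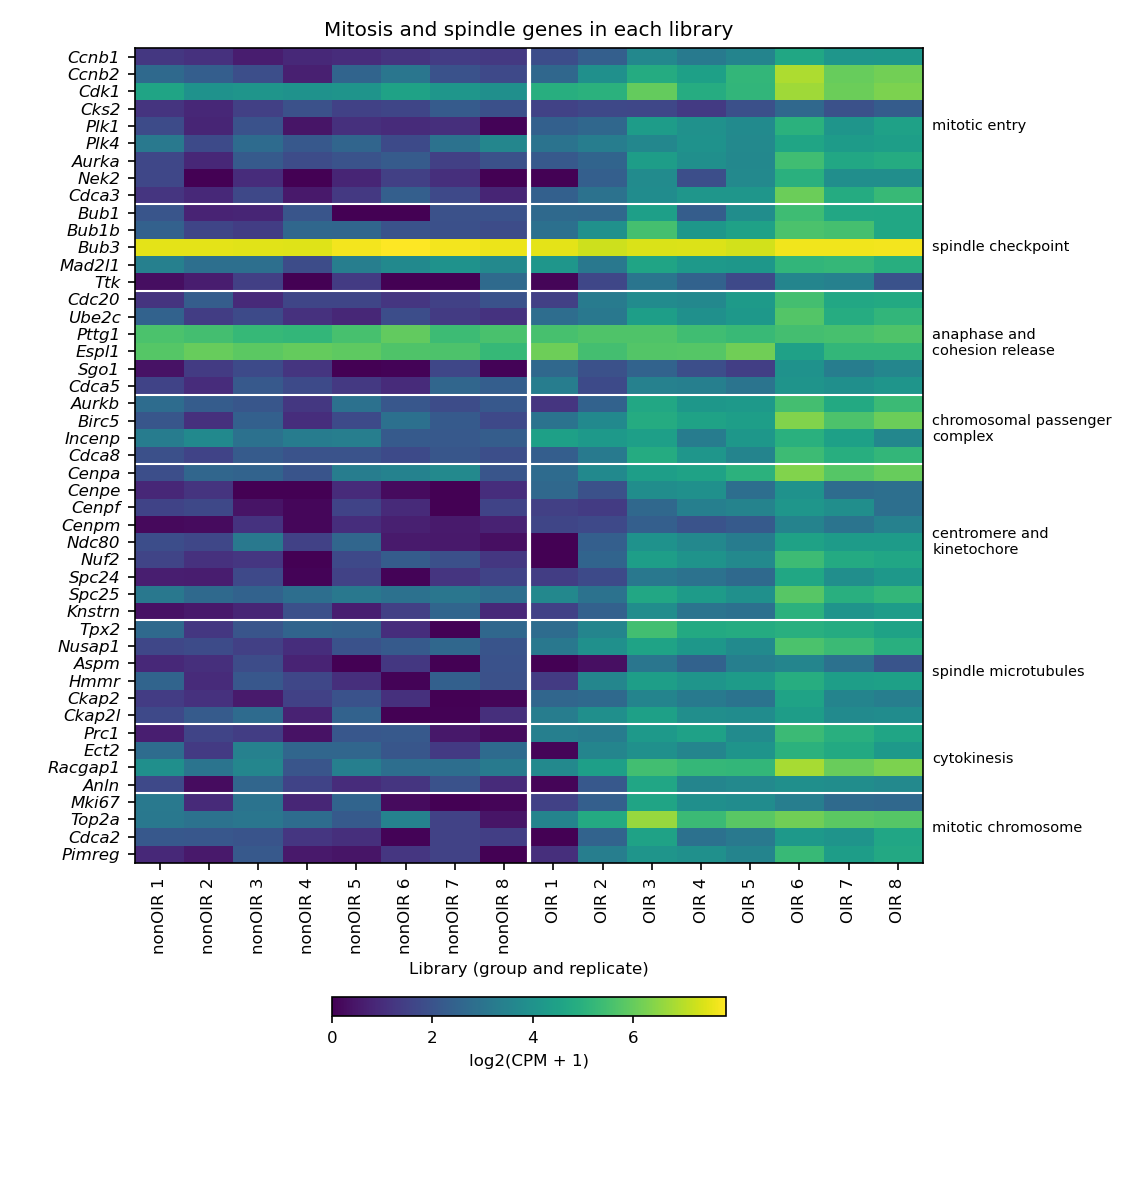
Level of each of the 47 genes (rows, grouped by role) in each of the 16 libraries (columns), as log2(CPM + 1) on the colour scale. Bub3, Pttg1 and Espl1 are bright in both groups, and most other rows are dark in nonOIR and brighter in OIR, least so in OIR replicate 1.

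Low levels in nonOIR did not remove any gene from the test. All 47 reached the cutoff of the low-count filter (0.419 CPM before scaling) in at least 4 nonOIR libraries, and 24 did so in all 8. The filter asks for that cutoff in at least 8 of the 16 libraries. All but those 24 thus passed it only with OIR libraries counted in, the group where most of the 47 are higher. Summed over the 8 nonOIR libraries, the smallest number of counts for any of them was 94, and 12 had at least 1 nonOIR library at 0. Summed over the 47 genes, expression lay between 374 and 478 CPM in nonOIR and between 529.9 and 1954 CPM in OIR, without overlap. Bub3, Pttg1 and Espl1, set apart after their values were seen, held 67.9 ± 3.96% of that sum in nonOIR and 29.0 ± 13.4% in OIR (SD, n = 8). The other 44 summed to 138 ± 23.6 CPM in nonOIR and 841 ± 472 CPM in OIR (SD, n = 8).

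The promoters of genes that rise together in mitosis often carry a cell cycle genes homology region (CHR), read here as the letters TTTGAA or TTCGAA, and CCAAT boxes, which the factor NF-Y binds. RefSeq promoters on GRCm38.p6, the same assembly as mm10, were at hand for 41 of the 47 genes (44 windows, from 250 bases before the transcription start to 50 after it) and not for Aurkb, Incenp, Spc24, Tpx2, Cdca2 and Pimreg. Both strands were searched. TTCGAA reads the same on both, and neither CHR form overlaps the other, but a CCAAT box can share its last base with a CHR. CHR letters were found in 33 of the 44 windows (75%), against 19.2% of all 32851 promoters of that length, and within 50 bases of the start in 29 (65.9%), against 5.31%. At least 1 CCAAT stood in 34 windows (77.3%, against 37.4%), and both motifs in 30 (68.2%, against 7.52%). Among the 11843 promoters of genes tested, 14.2% held CHR letters, 3.72% held them within 50 bases of the start, 38.1% held a CCAAT and 5.8% both motifs. By gene, CHR letters were found for 23 of the 32 genes that rose and for 7 of the 9 that did not pass. They were thus found on both sides of the threshold. Among those 7, Bub3 and Espl1 had log2 fold changes of -0.11 and -0.18. Aspm, Ect2, Mki67, Ndc80 and Ttk had positive ones, from 1.77 to 2.25, that missed the threshold. A match is a description of the letters only.

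The 5 windows were picked to show genes that rose and genes that did not pass, with and without these letters. They are printed from 200 bases before to 30 after the start, in the gene's direction, with CHR and CCAAT matches in capitals. Ccnb2 (chr9:70421525-70421754, minus strand) and Cdc20 (chr4:118437314-118437543, minus strand) rose and carry both motifs. Nusap1 (chr2:119618098-119618327, plus strand) rose and has neither in its window. Bub3 (chr7:131560170-131560399, plus strand, the first of 2 starts in the table) and Pttg1 (chr11:43425952-43426181, minus strand) did not pass, and the former carries both and the latter neither.
Ccnb2: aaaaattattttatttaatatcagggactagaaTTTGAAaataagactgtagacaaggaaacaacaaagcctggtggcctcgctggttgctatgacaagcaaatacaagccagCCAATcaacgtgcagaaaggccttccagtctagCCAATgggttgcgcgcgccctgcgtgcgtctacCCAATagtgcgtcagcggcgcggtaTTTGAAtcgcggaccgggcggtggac
Cdc20: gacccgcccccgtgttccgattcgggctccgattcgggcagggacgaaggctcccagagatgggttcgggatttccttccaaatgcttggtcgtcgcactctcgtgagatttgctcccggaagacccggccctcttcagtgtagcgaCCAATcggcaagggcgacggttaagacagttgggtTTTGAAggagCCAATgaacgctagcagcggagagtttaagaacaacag
Nusap1: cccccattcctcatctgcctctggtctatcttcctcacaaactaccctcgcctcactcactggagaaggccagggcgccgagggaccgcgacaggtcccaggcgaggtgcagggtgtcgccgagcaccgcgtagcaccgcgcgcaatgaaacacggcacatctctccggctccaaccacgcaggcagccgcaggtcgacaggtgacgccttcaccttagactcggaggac
Bub3: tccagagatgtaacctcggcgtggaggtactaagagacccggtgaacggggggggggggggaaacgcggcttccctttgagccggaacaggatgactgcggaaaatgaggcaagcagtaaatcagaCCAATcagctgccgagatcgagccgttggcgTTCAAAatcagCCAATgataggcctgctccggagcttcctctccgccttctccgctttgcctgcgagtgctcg
Pttg1: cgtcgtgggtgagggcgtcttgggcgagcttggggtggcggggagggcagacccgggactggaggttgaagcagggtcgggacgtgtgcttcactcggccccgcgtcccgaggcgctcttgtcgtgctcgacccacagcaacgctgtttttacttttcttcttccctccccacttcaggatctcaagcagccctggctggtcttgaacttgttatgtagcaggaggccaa
In Ccnb2 the 3 CCAAT boxes start 33 bases apart, at -87, -54 and -21, and a CHR starts at position 5 after the start, besides another at -167. In Cdc20 a CHR at -18 lies between CCAAT boxes at -53 and -8. Bub3 has the CHR letters on the reverse strand at -43, between CCAAT boxes at -74 and -32. The Bub3 window thus holds both motifs, as do those of Ccnb2 and Cdc20.

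The kinases and cyclins that start mitosis rose in 8 of 9 genes. Ccnb1 and Ccnb2 encode the cyclins that activate Cdk1. For single genes the 3 CPM values of a group are throughout the lowest, the median and the highest of its 8 libraries. Ccnb1 stood at 0.545, 1.21 and 1.63 CPM in nonOIR and at 2.62, 11.0 and 24.3 CPM in OIR, without overlap (log2 fold change 3.33 ± 0.40 SE, edgeR adjusted p = 0.000107). Ccnb2 stood at 0.627, 3.48 and 7.45 CPM in nonOIR and at 5.16, 31.2 and 116 CPM in OIR, and 7 of 8 OIR libraries lay above the highest nonOIR value (log2 fold change 3.55 ± 0.55 SE, edgeR adjusted p = 0.000550). In both, OIR replicate 1 was the lowest and OIR replicate 6 the highest of the OIR libraries. Cdk1, their kinase partner, had the highest mean CPM of the group, at 14.1, 15.8 and 22.7 CPM in nonOIR and at 27.5, 48.3 and 103 CPM in OIR, without overlap (log2 fold change 1.66 ± 0.26 SE, edgeR adjusted p = 0.000584). Per kilobase of exon, nonOIR Cdk1 stood at 3.45 ± 0.665 CPM and nonOIR Ccnb2 at 2.47 ± 1.38, while in OIR Cdk1 stood at 10.9 ± 5.64 and Ccnb2 at 28.8 ± 24.1 (SD, n = 8). Cdk1 had the higher mean of the pair in nonOIR and Ccnb2 in OIR. These SDs are spreads between libraries and do not measure the difference of 2 genes within a library, which was not tested. Cks2, a small Cdk-binding subunit, was measured at 0.841, 2.00 and 3.70 CPM in nonOIR and at 1.53, 2.49 and 5.31 CPM in OIR. Its groups overlap broadly and it did not pass (log2 fold change 0.39 ± 0.34 SE, edgeR adjusted p = 0.535).

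Polo-like and Aurora kinases act on centrosomes and the spindle. Plk1, which drives centrosome maturation and much of mitosis, stood at 0.0434, 1.02 and 2.95 CPM in nonOIR and at 4.25, 15.2 and 30.9 CPM in OIR, without overlap (log2 fold change 3.70 ± 0.55 SE, edgeR adjusted p = 0.000435). Aurka, the centrosomal Aurora kinase, rose 7.18-fold (edgeR adjusted p = 0.000567) and Plk4, the kinase of centriole duplication, 2.60-fold (edgeR adjusted p = 0.0111). Cdca3, which promotes the loss of the mitotic brake kinase Wee1, had the largest log2 fold change of the group. It was found at 0.448, 1.40 and 4.15 CPM in nonOIR and at 4.29, 16.4 and 65.8 CPM in OIR, without overlap (log2 fold change 3.79 ± 0.55 SE, edgeR adjusted p = 0.000396). Nek2, a centrosomal kinase, rose 13.4-fold (edgeR adjusted p = 0.0140), although OIR replicate 1 held only 0.0397 CPM and 3 nonOIR libraries were at 0. It did not pass in limma-voom (adjusted p = 0.282) or in edgeR without the low-count filter (adjusted p = 0.0580).

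In the spindle checkpoint, 3 of 5 genes rose. Bub1 and Bub1b (BubR1) are kinetochore-bound checkpoint proteins. Bub1 stood at 0, 1.81 and 3.22 CPM in nonOIR and at 3.97, 17.0 and 41.6 CPM in OIR, with the largest change of this group (log2 fold change 3.35 ± 0.73 SE, edgeR adjusted p = 0.00652) and no overlap. Bub1b rose 8.31-fold, also without overlap (edgeR adjusted p = 0.000129). Mad2l1, which encodes the Mad2 inhibitor of the APC/C, rose 2.48-fold (edgeR adjusted p = 0.0140), the smallest rise among the 38. Ttk (Mps1), the kinase at the head of the checkpoint, was measured at 0, 0.384 and 5.56 CPM in nonOIR and at 0.0794, 3.68 and 10.8 CPM in OIR. Its highest nonOIR value, in replicate 8, lay above 5 of the 8 OIR values, and it did not pass (log2 fold change 2.03 ± 0.97 SE, edgeR adjusted p = 0.199). Bub3, the partner that carries Bub1 and Bub1b to the kinetochore, was the most abundant of the 47 in CPM and per kilobase in nonOIR (chr7:131560222-131571895, plus strand). It stood at 174, 188 and 227 CPM in nonOIR and at 150.4, 175 and 206 CPM in OIR, with the groups overlapping (log2 fold change -0.11 ± 0.09 SE, edgeR adjusted p = 0.485).

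Of the 6 genes of anaphase and cohesion release, 4 rose. The APC/C activator Cdc20 rose 8.94-fold (edgeR adjusted p = 0.000451). Ube2c, the ubiquitin-conjugating enzyme of the APC/C, stood at 0.815, 1.61 and 4.52 CPM in nonOIR and at 6.00, 18.7 and 52.5 CPM in OIR, without overlap (log2 fold change 3.52 ± 0.45 SE, edgeR adjusted p = 0.000151). Sgo1 (shugoshin) and Cdca5 (sororin), which guard cohesion between sister chromatids, rose 6.67-fold and 4.07-fold (edgeR adjusted p = 0.0283 and 0.00305). The call for Sgo1 was lost when OIR replicate 6, 7 or 8 or nonOIR replicate 1 was left out (log2 fold change without them 2.46, 2.67, 2.61 and 2.62), and without the filter (edgeR adjusted p = 0.0584). Securin and separase did not pass. Pttg1 (securin), the inhibitor of separase, was measured at 35.7, 45.3 and 60.8 CPM in nonOIR and at 39.0, 45.6 and 50.5 CPM in OIR (log2 fold change 0.03 ± 0.11 SE, edgeR adjusted p = 0.904). Espl1, which encodes separase itself, was measured at 36.8, 55.2 and 63.0 CPM in nonOIR and at 21.2, 48.4 and 69.0 CPM in OIR (log2 fold change -0.18 ± 0.19 SE, edgeR adjusted p = 0.633). The groups overlap in both. The lowest OIR value of Espl1 was in OIR replicate 6, which held the highest OIR value of 36 of the 47 genes.

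All 4 genes of the chromosomal passenger complex, which corrects faulty attachments and then moves to the midzone, rose. Birc5 (survivin) had both the highest mean CPM and the largest change of the 4. It stood at 1.03, 2.83 and 6.42 CPM in nonOIR and at 6.91, 24.4 and 81.0 CPM in OIR, without overlap (log2 fold change 3.53 ± 0.50 SE, edgeR adjusted p = 0.000299). The kinase gene Aurkb rose 5.78-fold and the borealin gene Cdca8 7.52-fold (edgeR adjusted p = 0.00359 and 0.000202), and in limma-voom Aurkb did not pass (adjusted p = 0.109). Incenp, the scaffold of the complex, changed least. It stood at 3.58, 7.69 and 12.1 CPM in nonOIR and at 8.71, 19.2 and 30.4 CPM in OIR (log2 fold change 1.37 ± 0.29 SE, edgeR adjusted p = 0.00476), with 6 of 8 OIR libraries above the highest nonOIR value.

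At the centromere and kinetochore, 8 of 9 genes rose. Cenpa, the histone H3 variant that marks centromeres, had the highest mean CPM, at 2.67, 4.85 and 11.8 CPM in nonOIR and at 5.64, 26.8 and 80.3 CPM in OIR (log2 fold change 2.53 ± 0.48 SE, edgeR adjusted p = 0.00236). Cenpe, a kinetochore motor, had the largest log2 fold change of the 47. Its gene lies at chr3:135212537-135273611, plus strand (mm10, GENCODE M21). It stood at 0, 0.497 and 1.26 CPM in nonOIR and at 2.86, 6.18 and 14.9 CPM in OIR, without overlap (log2 fold change 4.00 ± 0.74 SE, edgeR adjusted p = 0.00194), and 3 nonOIR libraries were at 0. Spc25 changed least of those that passed, at 4.53, 6.32 and 7.88 CPM in nonOIR and at 6.69, 21.9 and 54.4 CPM in OIR (log2 fold change 1.92 ± 0.32 SE, edgeR adjusted p = 0.00104). Spc24, Spc25, Nuf2 and Ndc80 encode the 4 subunits of the Ndc80 complex, which grips microtubules. Spc24 rose 9.03-fold and Nuf2 9.57-fold (edgeR adjusted p = 0.00549 and 0.00931), and Nuf2 did not pass in limma-voom (adjusted p = 0.457). Ndc80 itself was measured at 0.261, 2.03 and 7.96 CPM in nonOIR and at 0, 13.3 and 21.9 CPM in OIR and did not pass (log2 fold change 2.25 ± 0.76 SE, edgeR adjusted p = 0.0631). OIR replicate 1 had 0 counts of Ndc80 and of Nuf2, and nonOIR replicate 3 held 7.96 CPM of Ndc80. Ndc80 passed when OIR replicate 1 or nonOIR replicate 3 was left out. Its change was then 2.45 (edgeR adjusted p = 0.00990) or 2.75 (edgeR adjusted p = 0.0341) on the log2 scale. Over all 28 settings, the main one included, Ndc80 passed in 6. These include DESeq2 (adjusted p = 0.0435) and lane 2 alone (log2 fold change 5.65, edgeR adjusted p = 5.06e-05). The other 3 that rose were Cenpf (6.81-fold), Cenpm (9.40-fold) and Knstrn (7.90-fold).

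Of 6 genes for proteins on spindle microtubules, 5 rose. Tpx2, which activates Aurora A and nucleates spindle microtubules, had the highest mean CPM, at 0.0407, 3.82 and 5.33 CPM in nonOIR and at 5.84, 26.5 and 42.7 CPM in OIR, without overlap (log2 fold change 2.93 ± 0.53 SE, edgeR adjusted p = 0.00179). Nusap1, which bundles spindle fibres, had the largest change. It stood at 1.03, 2.69 and 5.13 CPM in nonOIR and at 7.79, 19.5 and 47.9 CPM in OIR, without overlap (log2 fold change 3.09 ± 0.38 SE, edgeR adjusted p = 0.000123). Hmmr, Ckap2 and Ckap2l rose 7.07-fold, 8.47-fold and 6.46-fold (edgeR adjusted p = 0.00334, 0.00315 and 0.0109). Aspm, a spindle-pole protein known from its role in brain size, was measured at 0, 0.991 and 2.91 CPM in nonOIR and at 0, 5.51 and 10.9 CPM in OIR. OIR replicates 1 and 2 held 0 and 0.256 CPM, below the nonOIR median, and it did not pass (log2 fold change 2.14 ± 0.91 SE, edgeR adjusted p = 0.146).

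Among the 4 cytokinesis genes 3 rose. Prc1, which bundles the microtubules of the midzone, stood at 0.174, 1.14 and 3.57 CPM in nonOIR and at 8.74, 19.4 and 39.9 CPM in OIR, without overlap (log2 fold change 3.72 ± 0.55 SE, edgeR adjusted p = 0.000435). Racgap1, part of the centralspindlin complex, had the highest mean CPM, at 3.18, 7.59 and 13.9 CPM in nonOIR and at 11.9, 39.4 and 110.2 CPM in OIR (log2 fold change 2.63 ± 0.39 SE, edgeR adjusted p = 0.000435), and OIR replicate 1 (11.9 CPM) was the 1 OIR library below the nonOIR maximum. Anln (anillin), a scaffold of the contractile ring, rose 5.72-fold (edgeR adjusted p = 0.0181), and did not pass in limma-voom (adjusted p = 0.308) or without the filter (edgeR adjusted p = 0.0540). Ect2, the exchange factor that switches on RhoA at the cell equator, was measured at 1.51, 5.01 and 9.76 CPM in nonOIR and at 0.0794, 14.9 and 32.0 CPM in OIR and missed the threshold (log2 fold change 1.77 ± 0.58 SE, edgeR adjusted p = 0.0554). In OIR replicate 1 it stood at 0.0794 CPM, and the other 7 OIR values lay above every nonOIR value. Without that library Ect2 passed (log2 fold change 1.96, edgeR adjusted p = 0.00193), as it did without nonOIR replicate 3 (2.01, edgeR adjusted p = 0.0446). Over all 28 settings, the main one included, Ect2 passed in 6, among them DESeq2 (adjusted p = 0.0356).

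Of the 4 genes for proteins on mitotic chromosomes, 3 rose and the common proliferation marker Mki67 did not pass. Top2a, the topoisomerase that untangles chromosomes, had the highest mean CPM, at 0.348, 6.25 and 10.03 CPM in nonOIR and at 10.6, 55.0 and 97.6 CPM in OIR, without overlap (log2 fold change 3.24 ± 0.49 SE, edgeR adjusted p = 0.000467). Pimreg had the largest change, at 0, 0.676 and 3.60 CPM in nonOIR and at 1.07, 15.2 and 37.8 CPM in OIR (log2 fold change 3.90 ± 0.68 SE, edgeR adjusted p = 0.00134), and missed the threshold in limma-voom (adjusted p = 0.0606). Cdca2, a phosphatase subunit on anaphase chromosomes, rose 6.13-fold (edgeR adjusted p = 0.0257). Its call was lost without OIR replicate 8 (log2 fold change 2.42, edgeR adjusted p = 0.0547), in limma-voom (adjusted p = 0.483) and without the filter (edgeR adjusted p = 0.0819). It was also lost in lane 1 alone (edgeR adjusted p = 0.351) and with the replicate block (edgeR adjusted p = 0.120). Mki67, which encodes Ki-67, a protein that coats mitotic chromosomes (chr7:135689784-135716361, minus strand), was measured at 0, 0.865 and 8.07 CPM in nonOIR and at 1.87, 7.44 and 22.6 CPM in OIR (log2 fold change 1.82 ± 0.81 SE, edgeR adjusted p = 0.168). The 3 nonOIR libraries of lane 2 held the 3 lowest Mki67 values. In nonOIR, lane 1 held 4.28 ± 3.35 CPM (SD, n = 5) and lane 2 0.0884 ± 0.0892 CPM (SD, n = 3). In OIR the lane 1 libraries held 11.1 ± 8.33 CPM and those of lane 2 6.71 ± 2.26 CPM. The log2 fold change was 1.39 in lane 1 (edgeR adjusted p = 0.354) and 6.23 in lane 2 (edgeR adjusted p = 0.00128). With lane as a covariate Mki67 passed (log2 fold change 2.60, edgeR adjusted p = 0.0265), which brought the count to 39.

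**Figure D2:**
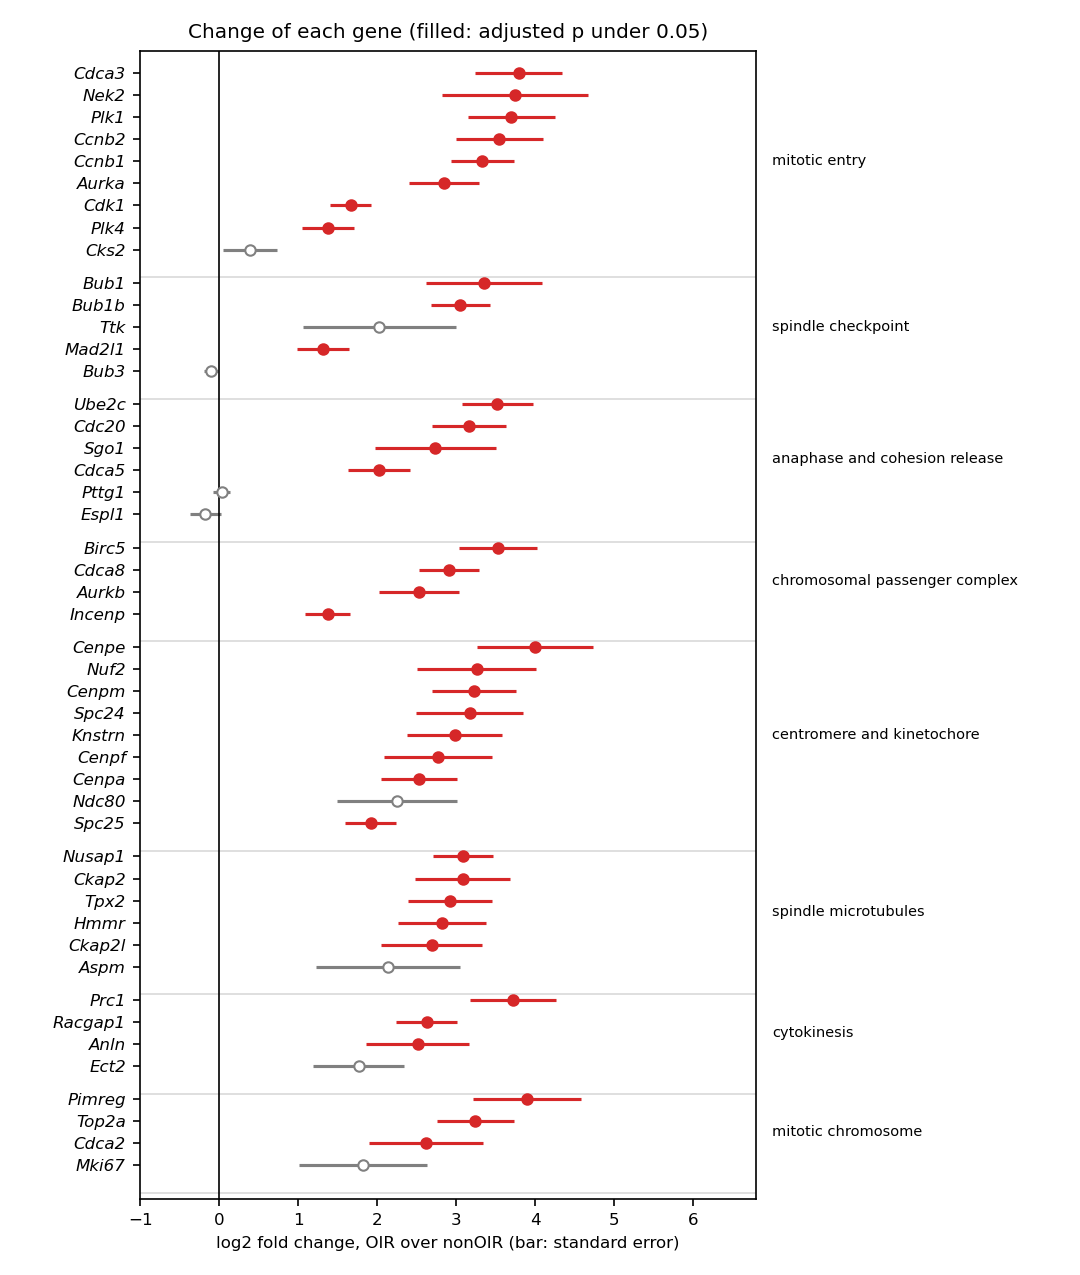
log2 fold change of each of the 47 genes, OIR over nonOIR, with its standard error as a bar, grouped by role. Filled points (38) passed the test over all genes, and the open points (9) did not, of which Bub3, Pttg1 and Espl1 lie nearest to 0.

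The OIR libraries differed widely among themselves. OIR replicate 1 had the lowest OIR value for 33 of the 47 genes and OIR replicate 6 the highest for 36. The sum over the 47 was 529.9, 605, 1198, 876 and 924 CPM in OIR replicates 1 to 5, which carry the first lane code, and 1954, 1383 and 1438 CPM in replicates 6 to 8, which carry the second. All 3 OIR libraries of lane 2 thus lay above all 5 of lane 1. Of the 47 genes, 45 had a higher OIR mean in lane 2 and 23 a higher nonOIR mean there. These counts of genes by library and by lane were not made over all genes. Of the 5 OIR libraries of lane 1, 4 were also numbered before the S number starts again, and no nonOIR library was. Lane and numbering run therefore cannot be fully told apart in OIR, here or in the comparisons by lane. The nonOIR sums did not separate by lane, at 374 to 459.8 CPM in lane 1 and 406 to 478 CPM in lane 2. Over the 47 genes the median coefficient of variation within OIR was 62.8%.

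**Figure D3:**
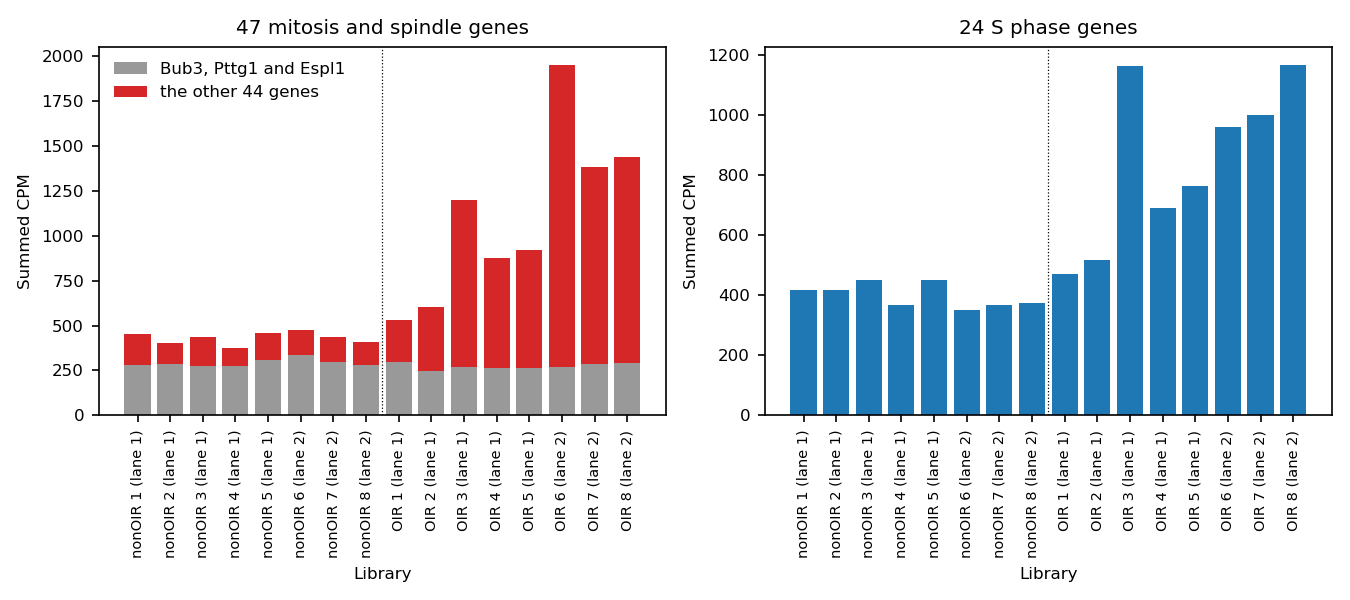
Summed CPM of the 47 mitosis and spindle genes (left, with Bub3, Pttg1 and Espl1 in grey and the other 44 in red) and of 24 S phase genes (right) in each library, with its lane code. The grey part is 244 to 294 CPM in OIR and 272 to 338 CPM in nonOIR, and the red part is largest in OIR replicate 6 and smallest among OIR libraries in OIR replicate 1.

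Within lane 1 alone (5 against 5), 25 of the 47 passed as higher (2.2% of all genes did), and within lane 2 alone (3 against 3), 41 passed (9.63% of all genes). Of the 38, these 13 did not pass in lane 1: Plk4, Nek2, Bub1, Mad2l1, Sgo1, Aurkb, Incenp, Cenpf, Cenpm, Nuf2, Spc24, Anln and Cdca2. In each lane 45 had a positive log2 fold change, with a median of 2.15 in lane 1 and 3.71 in lane 2. The change was larger in lane 2 for 45 genes. A test of lane by group in the same model passed for 0 of the 47 in edgeR at an adjusted p under 0.05 (0.496% of all genes tested passed), and at an unadjusted p under 0.05 for 14 of them (13.1% of all genes tested). The largest such differences were in Ndc80 and Mki67, where lane 2 exceeded lane 1 on the log2 scale by 4.59 ± 1.28 (SE, edgeR adjusted p = 0.105) and 4.81 ± 1.32 (SE, edgeR adjusted p = 0.101). Without OIR replicate 1, 40 of the 47 passed (7.16% of all genes were then higher), and with OIR replicates 1 to 4 left out 41 did (8.07% of all genes).

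**Figure D4:**
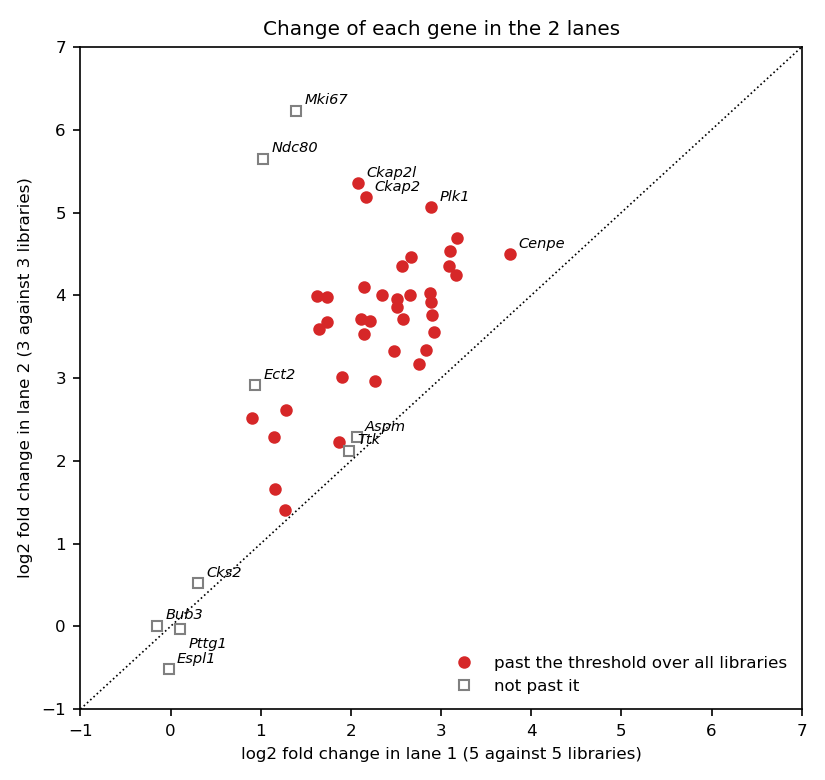
log2 fold change of each of the 47 genes within lane 1 (horizontal axis) and within lane 2 (vertical axis), with the dotted line marking equal values. All but 2 points lie above the line, farthest for Mki67 and Ndc80, and the 2 exceptions are Pttg1 and Espl1.

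In the authors' deposited table, 39 of the 47 genes had an adjusted p under 0.05, all with a positive log2 fold change (8.16% of all genes with an adjusted p there). The log2 fold changes in the authors' deposited table were smaller, from 0.72 (Nek2) to 2.37 (Ccnb1) among those 39, and the largest of any gene in that table was 3.03. Ect2 passed in the authors' deposited table (adjusted p = 0.0177), and the other 8 of the 9 above did not.

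The library kit is not stated to keep strand, and exons of 9 of the 47 genes share bases with a gene on the opposite strand, so reads there cannot be told apart: Cdc20, Cdca8, Ckap2l, Knstrn, Nek2, Nusap1, Plk1, Prc1 (911 bases, with Rccd1) and Ube2c (592 bases, with Tnnc2). Other genes of cell division were counted in 5 lists, to be read beside the 6.39% of all genes tested that rose and the 4.56% that fell. Of 30 further kinetochore and centromere genes, 10 rose and 0 fell, with a median log2 fold change of 0.93. Oip5, a centromere licensing factor whose gene shares 172 exonic bases with Nusap1 on the other strand, rose from 0.371 ± 0.324 to 5.34 ± 3.80 CPM, and Pmf1, a subunit of the Mis12 complex, from 9.49 ± 2.13 to 20.3 ± 7.49 CPM (SD, n = 8). Of 28 tested genes of the spindle pole and centrosome 4 rose and 0 fell (median 0.25). The lowest p-values were those of Tacc3 (from 9.52 ± 4.68 to 38.2 ± 22.5 CPM) and Haus8 (from 15.8 ± 4.40 to 28.9 ± 5.68 CPM), and the largest fold was that of the cytokinesis gene Cep55 (from 1.96 ± 2.33 to 12.9 ± 5.98 CPM), named after its value was seen. Of 16 triggers, brakes and exit phosphatases of mitosis 6 rose and 0 fell (median 0.36). The lowest p-values there were those of cyclin A2 (Ccna2, from 3.92 ± 2.19 to 42.7 ± 33.4 CPM) and the Cdk1-inhibiting kinase gene Pkmyt1 (from 0.447 ± 0.450 to 4.50 ± 2.58 CPM).

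Of 15 genes of the APC/C (its subunits and the activator gene Fzr1) 2 rose and 0 fell, Anapc5 from 125 ± 8.95 to 180.1 ± 43.8 CPM and Anapc15 from 4.77 ± 0.977 to 8.14 ± 2.68 CPM (SD, n = 8), and the median was 0.09. Fzr1 did not pass, at 64.5 ± 14.1 CPM in nonOIR and 62.6 ± 7.32 CPM in OIR. The list summed to 755 to 856 CPM in nonOIR and 803 to 999 CPM in OIR. Of 24 S phase genes, which supply nucleotides and copy DNA, 17 rose and 0 fell (median 1.31), with the lowest p-values in Rrm2 (from 5.88 ± 0.933 to 44.7 ± 23.8 CPM) and the helicase subunit gene Mcm5 (from 16.9 ± 5.32 to 62.6 ± 22.8 CPM). They summed to 349 to 452 CPM in nonOIR and 469.8 to 1168 CPM in OIR, and OIR replicates 1 and 2 were again the lowest of the OIR libraries, at 469.8 and 519 CPM. OIR replicate 6, the highest for the mitosis genes, stood at 959.9 CPM of S phase genes, below OIR replicates 3, 7 and 8. Within lane 1 alone 1 of the further kinetochore genes, 4 of the S phase genes and 0 of the other 3 lists passed. Of all genes 2.2% were higher there. Within lane 2 alone 14 of the further kinetochore genes, 19 of the S phase genes and 6 of the spindle pole and centrosome genes were higher. So were 5 of the triggers and brakes and 1 of the APC/C genes, against 9.63% of all genes. Of the spindle pole and centrosome genes 1 was lower in lane 2, as were 755 of all 13085 genes tested there.

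**Figure D5:**
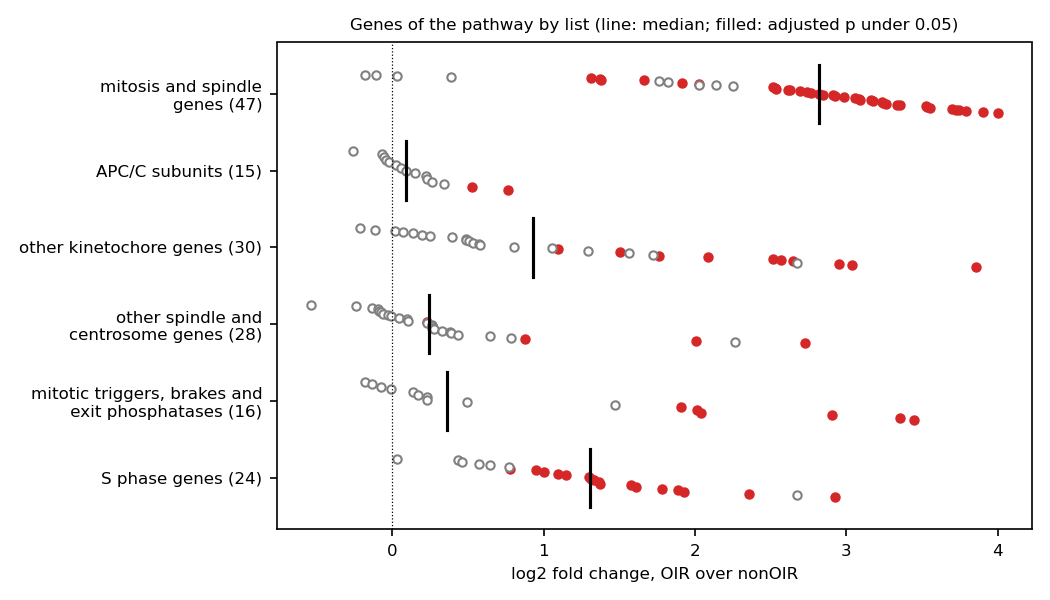
log2 fold change of every tested gene of the 47 and of 5 further lists of cell division genes (1 point a gene, filled where it passed, with the median of each list as a line). The 47 have a median of 2.82, the S phase genes 1.31 and the APC/C genes (labelled subunits, with Fzr1 among them) 0.09.

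Markers of other cells were read in the same libraries, and their part in these results was not tested. The 10 monocyte markers summed to 9.08 to 74.8 CPM in nonOIR and 30.5 to 126 CPM in OIR. Of 5 tested 0 passed, F13a1 had the widest range (0 to 112 CPM in OIR), Ly6c2 and Fcnb were at 0 in every library, and the OIR libraries of lane 2 held the 3 highest sums. The tested 5 had a median log2 fold change of 1.51, with Plac8 at 3.88-fold, Itgal at 3.20-fold and S100a4 at 2.86-fold (edgeR adjusted p = 0.0510, 0.0846 and 0.0565). F13a1 stood at 2.67-fold (edgeR adjusted p = 0.300), and Ccr2 was near level at 0.958-fold (edgeR adjusted p = 0.935). The 9 erythroid markers found summed to 0 to 29.0 CPM in nonOIR and 2.34 to 293 CPM in OIR. Of 2 tested both rose (Hbb-bs and Hbb-bt), and the sum in OIR replicate 6, the library highest in mitosis genes, was 50.7 CPM. Alas2 reached 12.1 CPM in OIR and was at 0 in all nonOIR libraries, Hba-a1 and Hba-a2 reached 44.2 and 34.1 CPM in OIR against 0.0434 and 0.148 CPM in nonOIR, and Klf1 reached 0.575 CPM in OIR and 0.761 CPM in nonOIR. The 10 endothelial markers summed to 22.1 to 42.7 CPM in nonOIR and 9.90 to 37.7 CPM in OIR, and 0 of 4 tested passed. The 10 markers of retinal progenitors summed to 1.64 to 10.5 CPM in nonOIR and 0.360 to 5.84 CPM in OIR, with Fgf15 and Atoh7 at 0 throughout, and 0 of 1 tested passed. Of the 8 pericyte markers (0.268 to 6.26 CPM in nonOIR and 0.596 to 4.32 CPM in OIR) 1 was tested and rose (Acta2). The 10 neutrophil markers summed to 0 to 1.26 CPM in nonOIR and 0.0426 to 3.11 CPM in OIR and the 10 lymphocyte markers to 0 to 0.847 CPM in nonOIR and 0 to 0.360 CPM in OIR, and 0 of the 1 and 0 tested passed. The 10 markers of Müller glia and astrocytes summed to 337 to 409 CPM in nonOIR and 251 to 387 CPM in OIR, where 1 of 7 tested fell (Glul), and the 10 photoreceptor markers to 66.2 to 567 CPM in nonOIR and 41.3 to 459 CPM in OIR, where 0 of 8 tested passed. The 10 microglial markers summed to 62730.4 to 77018 CPM in nonOIR and 36229 to 60816 CPM in OIR, and 4 of 10 fell, among them Tmem119 and P2ry12. In OIR the 3 libraries of lane 2, highest in mitosis genes, held the 3 lowest microglial sums, 36229, 42741 and 38293 CPM.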

How the data were processed

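RNA sequencing of 16 libraries of sorted retinal microglia (8 OIR, 8 nonOIR) was read from 1 deposited gene table. Per the submitters' processing notes, the build was mm10 and the tools were featureCounts 1.6.2 and DESeq2 2.11.40.2, besides STAR 2.6.0b-1 and FastQC 0.72, with no roles given. Per the labels' protocols, cDNA was made with a SMARTer kit (12 PCR cycles) and libraries with Nextera XT. Per the file headers, the authors deposited raw counts per gene, which are whole numbers, and these were used for every test. The authors also deposited a normalized signal per library and its mean, a log2 fold change and its standard error, a Wald score, and a p-value with its adjusted form. Of these, the log2 fold change and the adjusted p-value are quoted as the authors' values.

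Counts were scaled with TMM, filtered with filterByExpr and tested with edgeR 4.0.16 (robust quasi-likelihood fit, two-sided). The p-values of all 12496 genes were adjusted by Benjamini-Hochberg, and 0.05 was the threshold. The fit on counts was tested on simulated data. Library depth is given with the results. PCR duplicates could not be counted without molecular identifiers. Levels per kilobase used exon lengths of GENCODE M21. Alternatives were RLE, library-size and upper-quartile scaling, no filter, DESeq2 1.42.0, limma-voom (limma 3.58.1), lane as covariate, each lane alone, OIR replicates 5 to 8 alone, the replicate block and leaving out each library.

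The 47 genes, the lists and the tests were chosen with earlier results of these data known. Values in full are given, in each role, for the gene with the highest mean CPM, those with the largest and the smallest absolute log2 fold change, and each gene that did not pass. Ccnb1, Ccnb2 and Plk1 were added after their values were seen, as was the test of lane by group.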

Additional observations from a re-analysis of the deposited data

Results flagged for a closer look

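Ttk, the checkpoint kinase gene, had 1 nonOIR library far from the others. Replicate 8 held 5.56 CPM and the next highest nonOIR library 1.80 CPM, a gap of 0.676 of the group's range, above Dixon's critical value of 0.526 for 8 samples. Of the 50 groups of values examined, this was the 1 that stood out, and chance alone marks about 5% of groups. With 1 library left out at a time, the log2 fold change of Ttk ran from 1.78 to 3.07 (edgeR adjusted p from 0.0588 to 0.327). Ttk passed in 0 of the 28 settings.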

How the results depend on the processing

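Of 1269 values of the 47 genes under 27 other settings, 1217 kept their direction and their side of the threshold. The count of 38 genes called higher was 25 in lane 1 only, where the other counts were also lower, at 417 for all genes (main 1368) and 5 for the pathway lists (main 39). In lane 2 only, with fewer libraries still, the counts were 41, 2015 and 46, and the cause was not tested. Limma-voom gave 33 of the 47 (Anln, Aurkb, Cdca2, Nek2, Nuf2 and Pimreg were lost and Mki67 was gained) and 1301 of all genes. No low-count filter gave 34 of the 47 (Anln, Cdca2, Nek2 and Sgo1 were lost) and 977 of all genes. DESeq2 gave 40 of the 47 (Ect2 and Ndc80 were gained) and 1859 of all genes. OIR replicates 5 to 8 only gave 41 of the 47 and 1665 of all genes. With lane as a covariate, 2159 of all genes passed, and 39 of the 47. Leaving out 1 library at a time gave 36 to 40 of the 47, 935 to 1556 of all genes and 30 to 43 pathway genes. Library-size scaling gave 1020 genes higher and 364 lower, and upper-quartile scaling 675 and 647, against 798 and 570. Bub3, at -0.11, turned to 0.0076 in lane 2 only and 0.0261 with OIR replicates 5 to 8 only. Pttg1, at 0.03, turned to -0.0315 in lane 2 only, to -0.0058 without nonOIR replicate 3 and to -0.0087 without nonOIR replicate 4, and leaving out 1 library at a time gave -0.0087 to 0.1075. With the replicate number as a block, 37 of the 47 passed (Cdca2 and Cenpf were lost and Mki67 was gained), and 1679 of all genes. Same-numbered libraries deviated together by more than 0.1 in 2 of 8 pairs (correlations -0.02 to 0.19), and 2 OIR libraries correlated best with their own number. In 12 of the 47 genes at least 1 nonOIR library had no count, which limits the precision of their fold changes.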
